A study of Mus musculus with 28 samples.

Results

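The genes described are the 8 mouse genes of polyamine metabolism whose mRNAs carry upstream reading frames or a ribosomal frameshift site, or act beside such genes. They were taken by symbol (Odc1, Azin1, Oaz1, Oaz2, Amd1, Sat1, Srm and Sms), and all 8 were among the 45513 genes counted. Polyamines (putrescine, spermidine and spermine) are small positively charged molecules that bind RNA and that dividing cells need in quantity. Odc1 encodes ornithine decarboxylase, which makes putrescine. Amd1 encodes the adenosylmethionine decarboxylase that supplies the aminopropyl groups, and Srm (spermidine synthase) and Sms (spermine synthase) add these groups in turn. Oaz1 and Oaz2 encode antizymes, which bind ornithine decarboxylase and lead it to the proteasome, and Azin1 encodes the antizyme inhibitor, a relative of ornithine decarboxylase that holds antizyme away from it. Sat1 encodes the acetyltransferase that starts polyamine breakdown and export. Several of these mRNAs are known to be read by ribosomes according to the polyamine level. Antizyme synthesis needs a shift of the ribosome by +1 base that polyamines favour, and short upstream frames in the Amd1 and Azin1 leaders are known to hold back synthesis when polyamines are abundant.

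Ribosome footprints (the mRNA fragments protected by ribosomes) and total mRNA were sequenced from the same cultures, and the quotient of both libraries of a culture is called the footprint to total mRNA ratio. MN1 cells, a clonal hybrid line of mouse spinal motor neurons and neuroblastoma cells, were transiently transfected with GFP, with hTDP-43 (the human RNA-binding protein TDP-43) or with the patient mutant hTDP-43 A315T (2 cultures each), and received cycloheximide before lysis. Primary cortical neurons were cultured from embryos at embryonic day 16, of non-transgenic littermates (WT, 2 cultures, numbered 2 and 3 in the labels) or of hemizygous mice with hTDP-43 (3 cultures) or hTDP-43 A315T (3 cultures) under the prion promoter. The neurons were treated with Ara-C against dividing cells, were used after 14 days in culture, and met cycloheximide only in the lysis buffer. Cell type and the cycloheximide protocol therefore cannot be told apart. Where the labels do not say that cultures came from separate animals, p-values measure only the spread between these cultures.

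Reads assigned to genes ranged from 332370 to 1219222 in MN1 footprint libraries, from 1328528 to 2988339 in MN1 total mRNA, from 166064 to 2528820 in neuron footprints and from 600385 to 6969578 in neuron total mRNA. The shallowest pair of neuron footprint libraries were hTDP-43 replicates 2 and 3, where 3 counts stand for up to 18.1 CPM (reads per 1e+06 assigned reads). Levels are given as CPM after TMM scaling, which sets the bulk of genes level between libraries. In the neuron total mRNA of WT replicate 3 and hTDP-43 replicate 3, Lars2 took 18.8% and 14.1% of reads against at most 7.49% in the other neuron total mRNA libraries, and these libraries stood apart for several polyamine genes. Summed over 9 neuron markers, neuron total mRNA held 4807 to 5611 CPM and MN1 total mRNA 392 to 490 CPM. Of 5 motor neuron markers, Isl1 and Slc18a3 were present in every MN1 library, whereas Mnx1 and Chat were at or near 0 and Lhx3 reached at most 11.2 CPM. The 4 markers of cycling cells summed to 357 to 556 CPM in MN1 total mRNA and to 2.58 to 7.01 CPM in neuron total mRNA, and the 5 astrocyte markers to at most 2.12 CPM in MN1 and 41.5 to 105 CPM in neurons; the part of cell division or of glia in the differences below was not tested. Mouse Tardbp total mRNA was 239 and 218 CPM with GFP, 405 and 340 CPM with hTDP-43 and 413 and 372 CPM with hTDP-43 A315T in MN1 cells. In neurons it did not set the genotypes apart, with 66.1 and 115 CPM in WT and 60.7 to 90.3 CPM in the transgenic cultures, and how far reads of the human transgene align to the mouse gene was not measured.

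In GRCm38 the genes lie apart from each other. Odc1 (ENSMUSG00000011179) is at chr12:17544873-17551502 and Srm (ENSMUSG00000006442) at chr4:148591503-148594993, both on the plus strand. Amd1 (ENSMUSG00000075232) is at chr10:40287458-40302188, Sms (ENSMUSG00000071708) at chrX:157443855-157492287, Sat1 (ENSMUSG00000025283) at chrX:155213132-155216449 and Azin1 (ENSMUSG00000037458) at chr15:38487430-38519266, all on the minus strand. Oaz1 (ENSMUSG00000035242) is at chr10:80826656-80829290 and Oaz2 (ENSMUSG00000040652) at chr9:65668001-65690300, on the plus strand. The microRNA gene Mir1982 overlaps Oaz1, and the counting did not use strand.

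The sequences shown are of the kinds by which the genes were grouped, and they are printed 5′ to 3′ in the direction of the mRNA from GRCm38. The first set holds short upstream frames that end in the leader, with the start and stop codon in capitals. Only frames that start with ATG were searched for. The Azin1 frame known to respond to polyamines starts at another codon, so it is not among those printed. Amd1, at chr10:40302155-40302175 on the minus strand, has the shortest distance from the cap of the set shown, with its ATG at position 12 of the mRNA and 6 codons before the stop.
Amd1 upstream frame: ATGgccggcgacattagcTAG
Odc1 upstream frame, chr12:17544921-17544947, plus strand: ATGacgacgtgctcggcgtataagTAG
Azin1 upstream frame, chr15:38514482-38514505, minus strand: ATGatagggggttccatctccTAA
Azin1 upstream frame nearest the coding start, chr15:38501507-38501536, minus strand: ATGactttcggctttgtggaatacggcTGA
Sat1 upstream frame, chrX:155216271-155216285, minus strand: ATGgtgccagccTGA

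In the annotated main transcripts, Amd1 had 1 upstream ATG frame, Odc1 had 2, Azin1 had 3, Sat1 had 2 and Sms had 4. Of these, 1 frame of Sat1 (44 codons) and 1 of Sms (30 codons) ran over the coding start. Oaz1, Oaz2 and Srm had none, with leaders of 74, 198 and 117 nucleotides. An upstream ATG is common. It was found in 11171 of 20536 coding genes with a leader (54.4%), so 5 of 8 is near the share of all genes. The leaders of the 5 genes were 281 to 590 nucleotides long, against a median of 171 nucleotides over all coding genes with a leader. These 5 were picked by their upstream ATG, and the median over all genes with an upstream ATG was not taken.

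The second set holds the antizyme frameshift sites, with the last codon of the first frame and its stop codon in capitals. The ribosome reads TCC, skips 1 base and goes on in the +1 frame.
Oaz1 shift site, chr10:80828283-80828312, plus strand: cggtggtgcTCCTGAtgtccctcacccacc
Oaz2 shift site, chr9:65686260-65686289, plus strand: ctgtggtgcTCCTGAtgcccctcacccact

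The windows share 27 of 30 bases. In Oaz1, 68 codons lie before the stop and 159 of 227 codons (70.0%) follow the shift. In Oaz2, 32 codons lie before it and 157 of 189 (83.1%) follow. Footprints were deposited as 1 count per gene, so reads before and after the shift, or on an upstream frame and the coding frame, were not separated here.

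**Figure D1:**
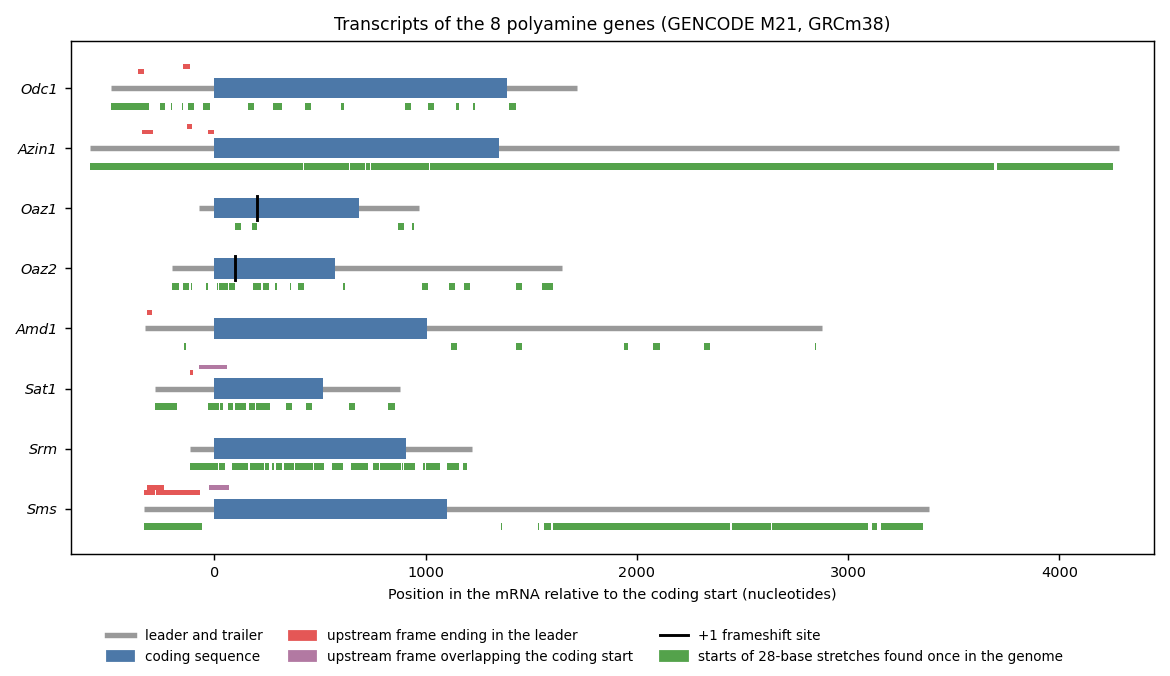
Main transcripts of the 8 genes drawn to scale, with nucleotides from the coding start on the x axis, coding sequence as blue boxes, leaders and trailers in grey, upstream frames in red or purple and the frameshift sites of Oaz1 and Oaz2 as black lines. Green marks the starts of 28-base stretches found once in the genome, which fill nearly all of Azin1 and none of the coding sequences of Amd1 and Sms.

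Reads from several of these genes can match a processed copy elsewhere in the genome. Of the 28-base stretches of the mRNA (the length of a footprint), 99.3% occur once in the genome for Azin1, 76.3% for Srm, 54.5% for Sms, 39.7% for Sat1, 23.7% for Oaz2, 22.6% for Odc1, 8.85% for Oaz1 and 4.88% for Amd1. In the coding sequence alone the share was 0% for Amd1 and Sms, although 90.2% of the Sms leader and 76.9% of its trailer were unique. The listed copies gathered few reads over all 28 libraries. Oaz2-ps had 21, Oaz1-ps 6, Amd-ps1 3, Amd-ps5 1, and Amd2, Sms-ps and Amd-ps4 had 0. The alignments behind the deposited counts are named 'uni', but how reads that match several places were treated is not given in the sources used here. The counts of Amd1, Sms, Oaz1, Odc1 and Oaz2 are therefore uncertain, and the footprint to total mRNA ratios of Amd1 and Sms most of all.

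Per kilobase of exon, the spermidine synthase gene Srm had the highest footprint level of the 8 genes in both cell types, at 293 ± 62.9 CPM per kilobase in MN1 cells (SD, n = 6) and 89.5 ± 9.31 in neurons (SD, n = 8). In MN1 footprints the order after Srm was Odc1 (75.6), Oaz1 (55.3), Azin1 (18.2), Oaz2 (9.77), Sms (5.03), Amd1 (4.85) and Sat1 (3.93). The ranges of Odc1 and Oaz1 overlapped, as did those of the last 3 genes. In neuron footprints Oaz2 (31.7), Oaz1 (25.3), Odc1 (23.6), Azin1 (16.3) and Sms (10.7) followed Srm, each overlapping its neighbour, and Sat1 (1.55) and Amd1 (0.78) lay below. For total mRNA the first place changed with the cell type. In MN1 cells Srm (297), Odc1 (167) and Oaz1 (104) led without overlap, ahead of Oaz2 (24.4), Azin1 (20.2), Amd1 (6.55), Sms (5.38) and Sat1 (3.90). In neurons Oaz2 (72.8) stood first by its mean, but its range overlapped that of Srm (62.7), which overlapped Oaz1 (52.2), and so on through Odc1 (32.1) and Azin1 (27.4) before the lower Sms (13.2), Sat1 (2.89) and Amd1 (2.69). Per kilobase of exon, the order of the antizyme genes differed between the cell types. In total mRNA, Oaz1 was above Oaz2 per kilobase of exon in all 6 MN1 libraries and Oaz2 above Oaz1 in all 8 neuron libraries, although the ranges over the neuron libraries overlapped. In footprints Oaz1 was above Oaz2 in all 6 MN1 libraries and Oaz2 above Oaz1 in 6 of 8 neuron libraries. The exon length used was 2558 nucleotides for Oaz1 and 2990 for Oaz2, against 1044 and 1843 in their main transcripts. The order per length of the main transcript was not taken, and the order in neuron total mRNA can depend on the length used.

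Since footprints lie mostly on coding sequence, the order was also taken per kilobase of coding sequence, and it then differed in places. In neuron footprints Oaz2 (166 CPM per kilobase) came ahead of Srm (157), with overlapping ranges, and above Oaz1 in all 8 libraries. In MN1 footprints Srm (516) led, and Oaz1 (207) came ahead of Odc1 (139), again with overlap. Total mRNA changed as well. In MN1 cells Srm (523) led without overlap, and Oaz1 (390) came ahead of Odc1 (307) with overlapping ranges. In neurons Oaz2 (382) stood first, followed by Oaz1 (195), Azin1 (127) and Srm (110), each overlapping the next.

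**Figure D2:**
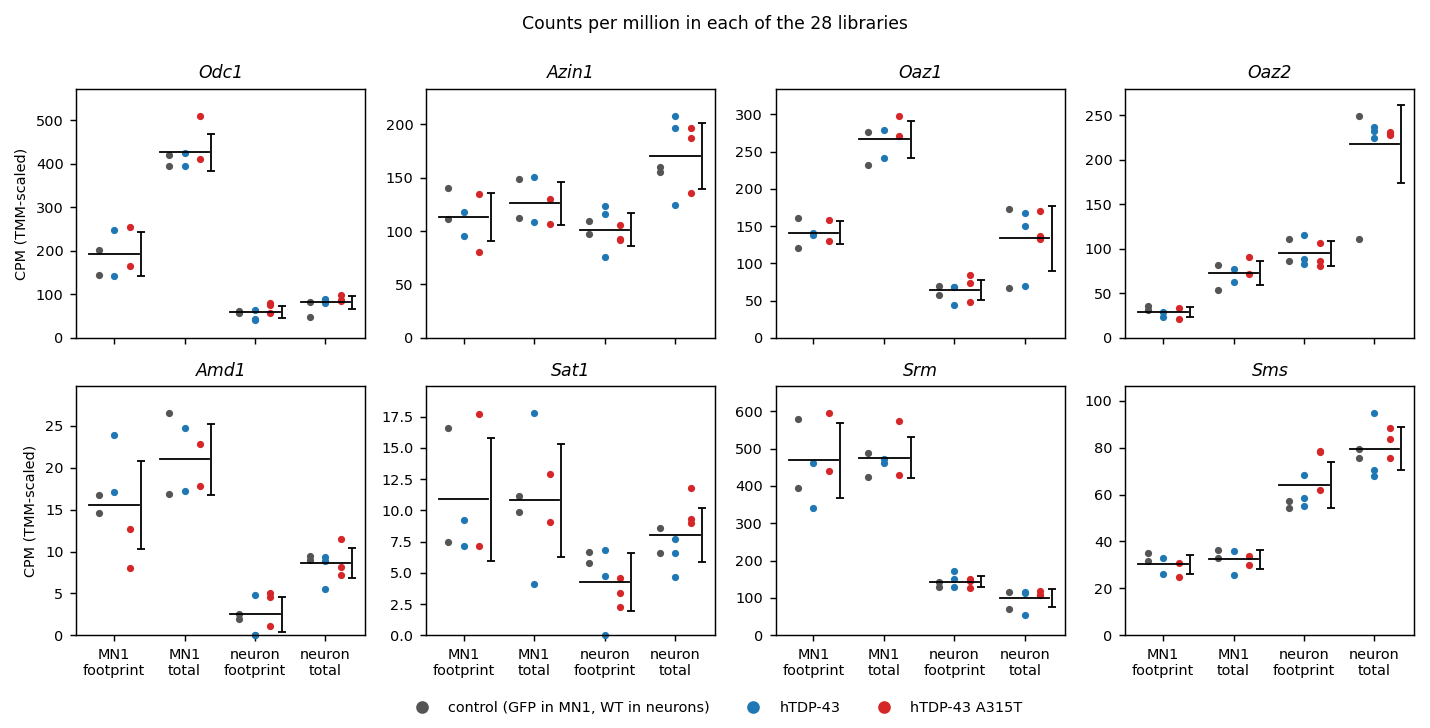
Level of each gene in CPM (y axis, linear, from 0) in every library, by cell type and library type, with points coloured by genotype, a black line for the mean over all libraries of that type and a bar for the SD. Odc1 and Srm are far higher in MN1 cells, and Oaz2 and Sms higher in neurons. The genotypes overlap in many columns but not in all, as for the low counts of Amd1 in MN1 footprints, where they separate.

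Cell types were compared over all cultures (8 of neurons, 6 of MN1). In footprints all 8 genes passed the test, 2 higher in neurons and 6 lower. In total mRNA 7 of 8 passed, 3 higher and 4 lower. Most genes differ between these cells: 82.6% of 10698 genes were called in footprints (42.7% higher, 39.9% lower) and 81% of 12801 in total mRNA (42.6% higher, 38.4% lower), so the number of polyamine genes called is near the background. These are bulk cultures, in which fewer cells of a type and less RNA per cell cannot be told apart.

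Odc1, the enzyme that makes putrescine, had the largest total mRNA difference of the 8 genes. Its total mRNA was lowest 394, median 415 and highest 510 CPM in MN1 cells against 47.0, 85.6 and 97.9 CPM in neurons, and the groups did not overlap. The log2 difference was −2.49 ± 0.13 (SE), 5.62-fold lower in neurons (adjusted p = 2.72e-10). Footprints ran from 143 CPM (median 183, highest 255) in MN1 cells and from 41.1 CPM (median 59.4, highest 81.2) in neurons, a log2 difference of −1.82 ± 0.15 (adjusted p = 1.75e-10). The footprint difference was thus the smaller of the pair.

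Srm, which turns putrescine into spermidine, differed in the same direction. Total mRNA had a lowest value of 425, a median of 467 and a highest of 575 CPM in MN1 cells, and 53.7, 111 and 118 CPM in neurons, 4.96-fold lower (log2 −2.31 ± 0.17, adjusted p = 8.72e-09). For footprints these values were 341, 451 and 595 CPM in MN1 cells and 126, 143 and 171 CPM in neurons, 3.72-fold lower (log2 −1.90 ± 0.12, adjusted p = 4.03e-12). In neither library type did the cell types overlap. The lowest neuron values of total mRNA, 70.6 and 53.7 CPM, were in the WT and hTDP-43 libraries that stood apart. Without those cultures the difference in total mRNA was −2.05 ± 0.11 for Srm and −2.28 ± 0.11 for Odc1.

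Sms, the next synthase of the pathway, went the other way from Srm. Total mRNA was 25.5 to 36.3 CPM (median 33.4) in MN1 cells against 67.8 to 94.7 CPM (median 77.6) in neurons, 2.35-fold higher (log2 1.23 ± 0.13, adjusted p = 5.96e-07). Footprints were 24.7 to 35.2 CPM (median 31.2) against 54.3 to 78.7 CPM (median 60.2), a log2 difference of 0.85 ± 0.15 (adjusted p = 2.49e-05). Each neuron library was above each MN1 library for both library types.

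Amd1, whose product feeds both synthases, was measured at low counts, 5 to 18 footprint reads per MN1 library and 0 to 11 per neuron library. Total mRNA was 16.9 to 26.5 CPM (median 20.3) in MN1 cells against 5.50 to 11.5 CPM (median 8.89) in neurons, 2.51-fold lower (log2 −1.33 ± 0.20, adjusted p = 2.27e-05). Footprints were 8.07 to 23.9 CPM (median 15.7) against 0 to 5.08 CPM (median 2.22), a log2 difference of −2.35 ± 0.37 (adjusted p = 4.62e-06). The groups did not overlap in either, but hTDP-43 replicates 2 and 3 had 0 Amd1 footprints at a depth where 3 counts make 15.6 and 18.1 CPM. Without these cultures the footprint difference was −2.16 ± 0.37. It was called in all 14 fits without 1 culture but ran from −3.83 to −2.08, the lowest value being that without neuron hTDP-43 replicate 1.

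The antizyme genes, which encode proteins that act on ornithine decarboxylase, moved in opposite directions. Oaz1 total mRNA was 232 to 298 CPM (median 274) in MN1 cells against 66.3 to 173 CPM (median 144) in neurons, 2.10-fold lower (log2 −1.07 ± 0.21, adjusted p = 0.000274), and its footprints were 120 to 160 CPM (median 140) against 44.2 to 84.8 CPM (median 68.5), 2.44-fold lower (log2 −1.29 ± 0.13, adjusted p = 1.18e-08). Oaz2 total mRNA was 53.6 to 90.4 CPM (median 74.6) in MN1 cells against 111 to 249 CPM (median 230) in neurons, 2.78-fold higher (log2 1.48 ± 0.18, adjusted p = 1.82e-06), and its footprints were 21.5 to 36.1 CPM (median 29.9) against 80.2 to 116 CPM (median 87.7), 2.84-fold higher (log2 1.504 ± 0.16, adjusted p = 1.59e-08). None of these ranges overlapped between the cell types. In the WT and hTDP-43 neuron libraries that stood apart, Oaz1 total mRNA was 66.3 and 70.1 CPM while the other 6 lay between 133 and 173 CPM. Oaz2 was low in the WT library of the pair (111 CPM) and not in the hTDP-43 library (224 CPM). Without these cultures the differences in total mRNA were −0.73 ± 0.11 for Oaz1 and 1.72 ± 0.12 for Oaz2.

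Azin1, the inhibitor of the antizymes, differed little between the cell types. Total mRNA was 106 to 151 CPM (median 121) in MN1 cells against 124 to 208 CPM (median 174) in neurons (log2 0.35 ± 0.15, adjusted p = 0.0439), while footprints were 80.7 to 140 CPM (median 114) against 75.3 to 123 CPM (median 102; log2 −0.32 ± 0.13, adjusted p = 0.0272). The ranges overlapped in both. The footprint call was lost in 13 of the 14 fits that left out 1 culture (log2 −0.36 to −0.03), and the total mRNA call in 6 of 14 (log2 0.26 to 0.43).

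Sat1, the acetyltransferase of polyamine breakdown, had 3 to 17 footprint reads per MN1 library and 0 to 10 per neuron library. Footprints were 7.16 to 17.8 CPM (median 8.35) in MN1 cells against 0 to 6.84 CPM (median 4.69) in neurons (log2 −1.30 ± 0.38, adjusted p = 0.00369), without overlap. Total mRNA was 4.13 to 17.8 CPM (median 10.5) against 4.67 to 11.8 CPM (median 8.14), with overlap and no call (log2 −0.47 ± 0.28, adjusted p = 0.141). It was called without MN1 hTDP-43 replicate 1, the lowest MN1 library (log2 −0.72, adjusted p = 0.00920).

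The footprint level of a gene was next set against its total mRNA in the same cells. In MN1 cells 3 of the 8 genes had fewer footprints than their mRNA level gave for the bulk of genes and none had more. In neurons 6 had fewer and 1 had more. These calls are on counts and are not corrected for the length of the coding sequence and of the mRNA. Over all genes tested, 57.4% were called in MN1 cells (27.2% higher, 30.2% lower) and 54% in neurons (26.6% higher, 27.3% lower). The median log2 difference of the 8 genes was −0.17 in MN1 cells and −0.69 in neurons, against −0.05 and 0.00 over all genes tested. Total mRNA was selected by poly(A) and footprints were not, and the part of this in a difference was not tested.

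Both antizyme genes, the pair with a frameshift site, were low in footprints in either cell type. Oaz1 footprints lay below total mRNA by log2 −0.77 ± 0.11 in MN1 cells (adjusted p = 3.43e-05) and −0.99 ± 0.22 in neurons (adjusted p = 0.000922). Oaz2 lay at −1.20 ± 0.17 (adjusted p = 3.86e-05) and −1.14 ± 0.16 (adjusted p = 1.16e-05). Taken culture by culture and set against the median gene of that culture, the log2 ratio of Oaz1 was −1.06 to −0.59 in the 6 MN1 cultures and −1.80 to −0.04 in the 8 neuron cultures. That of Oaz2 was −1.59 to −0.67 and −1.54 to 0.01. The values near 0 came from neuron cultures whose total mRNA stood apart, WT replicate 3 for both genes (−0.17 and 0.01) and hTDP-43 replicate 3 for Oaz1 (−0.04). Without the cultures numbered 3 of WT and hTDP-43, the neuron difference was −1.25 ± 0.16 for Oaz1 and −1.40 ± 0.13 for Oaz2.

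Of the genes with upstream frames, Odc1 was low in footprints in MN1 cells and less so in neurons. Its log2 difference of footprints from total mRNA was −0.99 ± 0.13 in MN1 cells (adjusted p = 1.79e-05) and −0.33 ± 0.14 in neurons (adjusted p = 0.0629). The neuron value was called in 3 of the 8 fits without 1 culture and in the fit without the cultures numbered 3 of WT and hTDP-43 (−0.44 ± 0.15, adjusted p = 0.0183). It was also called under RLE scaling (−0.40, adjusted p = 0.0248) and not in DESeq2 (−0.39, adjusted p = 0.0552). Per culture, the ratio relative to the median gene ran from −1.41 up to −0.61 in MN1 cells, and in neurons from −1.04 up to 0.33.

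Azin1 showed the reverse order. In MN1 cells its footprints matched its mRNA, with a log2 difference of 0.00 (adjusted p = 0.994), 3 of 6 cultures below their median gene and a range of −0.21 to 0.19. In neurons it lay at −0.66 ± 0.13 (adjusted p = 0.000433), with all 8 cultures below their median gene, from −1.47 to −0.13. Azin1 is the member whose reads are best placed, since nearly every stretch of its mRNA is unique.

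Amd1 and Sat1, whose footprints number 28 and 36 reads over the 8 neuron cultures, were called low in neurons. Amd1 lay at −1.40 ± 0.36 in neurons (adjusted p = 0.00328) and at −0.34 ± 0.22 in MN1 cells (adjusted p = 0.194). The neuron value of Amd1 was called in every fit without 1 culture, from −3.22 without hTDP-43 replicate 1 to −1.35. Sat1 lay at −0.73 ± 0.29 in neurons (adjusted p = 0.0429) and at 0.12 ± 0.40 in MN1 cells (adjusted p = 0.819). The Sat1 call was lost in 6 of the 8 fits without 1 culture, with the culture as a block (adjusted p = 0.0503) and in DESeq2 (adjusted p = 0.118). The ratios per culture spread widely, with an SD of 0.77 for Amd1 over the 6 neuron cultures that had a footprint and 0.94 for Sat1 over 7.

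The synthase genes differed from each other in neurons. Srm had more footprints than its mRNA gave, with log2 0.54 ± 0.15 (adjusted p = 0.00616), and lay above the median gene in all 8 neuron cultures (0.15 to 1.27). The size depended on the libraries that stood apart, since it was 0.32 ± 0.12 without them (adjusted p = 0.0285), and the call was lost without WT replicate 3 alone (adjusted p = 0.0870). Sms was slightly low in neurons (log2 −0.32 ± 0.13, adjusted p = 0.0398), a call lost in 4 of the 8 fits without 1 culture. In MN1 cells neither was called (Srm 0.12 ± 0.12, Sms 0.04 ± 0.15).

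**Figure D3:**
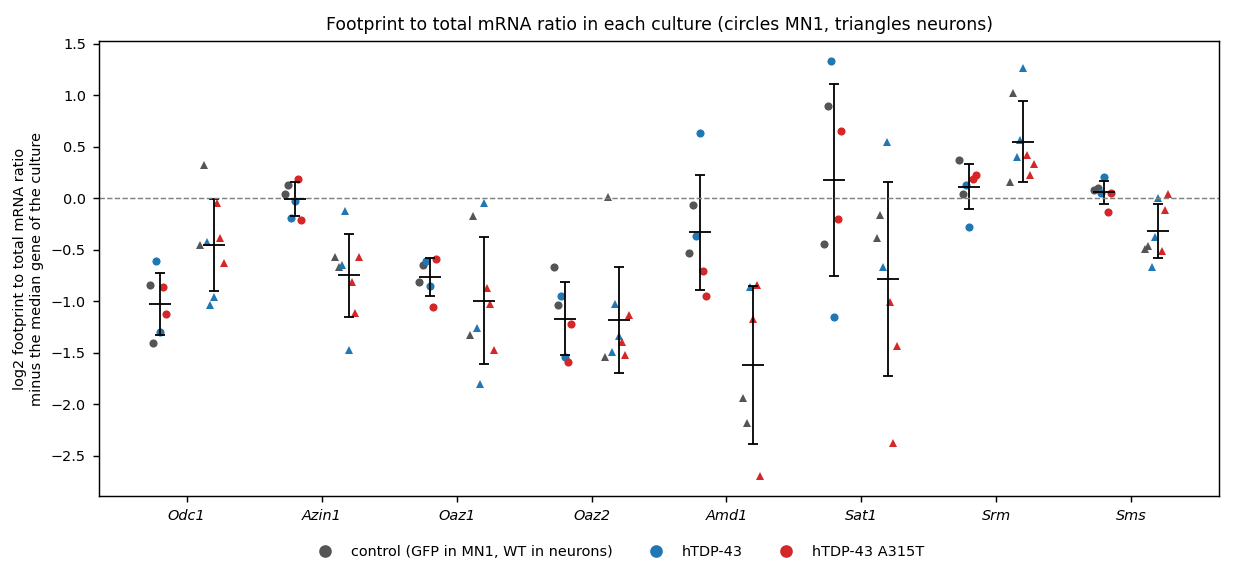
Log2 footprint to total mRNA ratio of each gene minus that of the median gene (y axis) in every culture, circles for MN1 cells and triangles for neurons, with points coloured by genotype and the mean and SD over cultures. Oaz1 and Oaz2 lie below 0 in nearly every culture of both cell types, Odc1 lies lower in MN1 cells than in neurons, and Azin1 lower in neurons than in MN1 cells, each with some overlap.

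Footprints cover the coding sequence and total mRNA the whole transcript, so a gene with long untranslated regions has a lower count ratio at the same ribosome density. With footprints taken per coding length and total mRNA per mRNA length, 8.48% of 12866 coding genes lay below Odc1 in MN1 cells and 25.4% in neurons. For Oaz1 these shares were 12.1% and 12%. For Oaz2, with a trailer of 1075 nucleotides beside 570 coding nucleotides, they were 33.1% and 34.6%. Azin1 stood high on this scale, with 81.2% of genes below it in MN1 cells and 57.3% in neurons, as did Sms (80.4% and 69%), and Srm stood at 38.1% and 57.1%. Amd1 went from 66.1% in MN1 cells to 11.7% in neurons and Sat1 from 65.6% to 21.1%. By density, not corrected for repeated stretches, Oaz1 was low in both cell types and Odc1 in MN1 cells. Oaz2 was below most genes but less far down. Of the 28-base stretches of Odc1, 14.2% were unique in the coding sequence and 22.6% in the mRNA, and of those of Oaz1 8.37% and 8.85%. The place of Odc1 therefore depends on how repeated stretches were counted. Azin1 and Sms, called low by count in neurons, were not low by density. The places of Amd1 and Sms are uncertain, since 0% of their coding stretches are unique. That of Amd1 in neurons also rests on 28 footprint reads. A separate correction of the count ratio, not for length but for the share of unique stretches in the coding sequence and in the whole mRNA, could not be made for Amd1 and Sms. It moved the mean log2 count ratio of Odc1 from −1.18 to −0.51 for MN1 cells and from −0.45 to 0.22 for neurons, and that of Oaz2 from −1.32 to −1.80 and from −1.18 to −1.65, so the size of these ratios depends on how repeated stretches were counted. The choice of length bears on the place of a gene among others and cancels between cell types if the same transcript is used in both.

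The test of the ratio between cell types asks whether footprints and mRNA changed by different amounts. Only Odc1 passed, and 8.07% of 12358 genes did (5.94% higher in neurons, 2.13% lower). The Odc1 ratio was higher in neurons by log2 0.77 ± 0.22 (adjusted p = 0.0261). The other members were not called in this fit, which did not pair the libraries of a culture. Azin1 stood at −0.55 ± 0.21 (adjusted p = 0.108), Srm at 0.52 ± 0.22 (adjusted p = 0.135), Amd1 at −0.93 ± 0.41 (adjusted p = 0.166), Sat1 at −0.73 ± 0.48, Sms at −0.26 ± 0.19, Oaz1 at −0.11 ± 0.27 and Oaz2 at 0.15 ± 0.24. These intervals are wide, and the test does not show that the ratios of the antizyme genes are alike in the cell types. The Amd1 value ran from −2.75 without neuron hTDP-43 replicate 1 to −0.77 and was not called in any fit without 1 culture (adjusted p 0.102 to 0.359). In the edgeR fit with the culture as a block, Odc1 (0.80, adjusted p = 0.0101) and Srm (0.54, adjusted p = 0.0470) were called. Azin1 was not (−0.54, adjusted p = 0.0502). The share of all genes called with the block is not given here.

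This comparison depends on the scaling. With TMM the median gene stood at log2 0.20 and 734 genes were higher and 263 lower, whereas with RLE scaling the median gene stood at −0.02 and 187 were higher and 417 lower, and DESeq2 gave −0.08 with 223 higher and 453 lower. Under RLE the Odc1 difference was 0.55 and no longer called (adjusted p = 0.113), as in DESeq2 (0.55, adjusted p = 0.112), while Azin1 was called lower in neurons under RLE (−0.78, adjusted p = 0.0216) and in DESeq2 (−0.78, adjusted p = 0.00981). Relative to the median gene the values hardly moved. Odc1 stood at 0.57 above it under both TMM and RLE, and Azin1 at −0.75 and −0.76. Odc1 was not called in 7 of the 14 fits without 1 culture (log2 0.61 to 0.93, adjusted p up to 0.176).

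**Figure D4:**
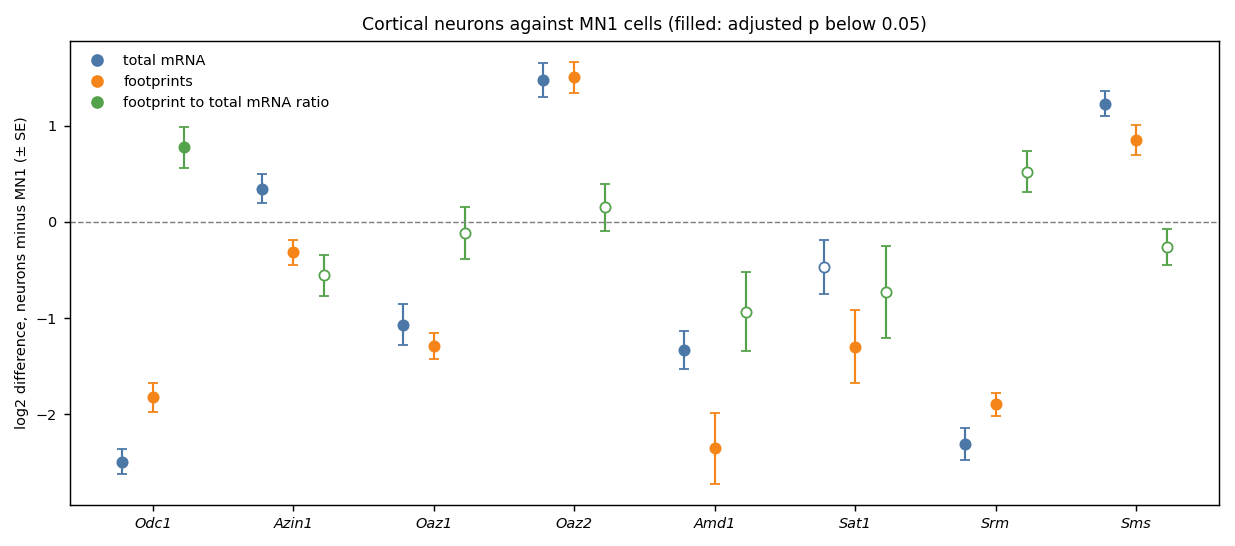
Log2 difference of neurons from MN1 cells with its SE (y axis) for total mRNA, footprints and the footprint to total mRNA ratio of each gene, from edgeR over all cultures, with filled points for adjusted p below 0.05. Odc1 and Srm lie near −2 in both library types, Oaz2 and Sms lie above 0, and the ratio of Odc1 is the filled green point.

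Overexpression of hTDP-43 or of hTDP-43 A315T did not give a called difference in any of the 8 genes. The genotypes of each cell type were compared pairwise in footprints, in total mRNA and in their ratio, which made 18 comparisons and 134 tests of a polyamine gene. None of the 134 was called by edgeR or at an unadjusted p under 0.05, and the lowest adjusted p was 0.873. DESeq2 called none either. The background was as empty, with 0.0115% of genes called in MN1 footprints (hTDP-43 A315T against GFP), 0.00965% in MN1 total mRNA (hTDP-43 A315T against GFP), 0.01% in MN1 total mRNA (hTDP-43 against GFP) and 0% in the other 15, where 44 to 419 genes had an unadjusted p under 0.05. Both tests of the hTDP-43 A315T effect in neurons against that in MN1 cells called 0% of genes as well. With 2 or 3 cultures a group, the self-test found 6.32% of genes planted with a log2 change of 1 in neuron total mRNA and 64.7% of those with 2, so most changes of the smaller size would be missed. Comparisons of a cell type share libraries, and their values are given side by side.

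In MN1 cells Odc1 total mRNA was 396 and 421 CPM with GFP, 426 and 394 CPM with hTDP-43, and 510 and 410 CPM with hTDP-43 A315T. The groups overlapped, and the hTDP-43 A315T difference from GFP was log2 0.10 ± 0.14. Odc1 footprints were 202 and 144 CPM, 248 and 143 CPM, and 255 and 165 CPM in the same order, a log2 difference of 0.28 ± 0.22 for hTDP-43 A315T. In every group the culture numbered 1 was the higher. Srm (0.06 ± 0.16), Oaz1 (0.09 ± 0.13), Oaz2 (0.17 ± 0.21), Azin1 (−0.20 ± 0.18), Sms (−0.20 ± 0.21) and Amd1 (−0.13 ± 0.30) lay within 0.21 of 0 in total mRNA of hTDP-43 A315T against GFP. The lowest member p of the 18 comparisons was that of Amd1 footprints, hTDP-43 A315T against hTDP-43 in MN1 cells, with 12.7 and 8.07 CPM against 17.2 and 23.9 CPM (log2 −0.95, unadjusted p = 0.0743, adjusted p = 1.00).

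In neurons Odc1 total mRNA was 82.4 and 47.0 CPM in WT, 86.7, 89.1 and 79.4 CPM with hTDP-43, and 84.6, 97.9 and 87.5 CPM with hTDP-43 A315T. The WT value of 47.0 CPM belongs to the library that stood apart. The difference of hTDP-43 A315T from WT was log2 0.46 ± 0.29 (adjusted p = 1.00). It became 0.96 and was called when only that library stood for WT (adjusted p = 0.0339), and 0.11 when only the other did. Oaz1 total mRNA was 173 and 66.3 CPM in WT against 137, 171 and 133 CPM with hTDP-43 A315T, and Oaz2 was 249 and 111 CPM against 228, 228 and 231 CPM. Their differences of 0.27 ± 0.39 and 0.33 ± 0.33 also rested on which WT library was used. They were 1.16 and 1.07, both called (adjusted p = 0.0187 and 0.0136), with WT replicate 3 alone, and −0.26 and −0.14 with WT replicate 2 alone. In a fit with 1 WT library, that library is assumed to vary like the hTDP-43 A315T cultures. With WT replicate 3 alone, 12.5% of all genes tested were called (1573 of 12558), so 3 of 8 members is no result about the members, and with WT replicate 2 alone 1 of 12288 was. The sign of the Oaz1 and Oaz2 difference thus changed with the WT library used.

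In neuron footprints no tested member was called either. Against WT, hTDP-43 A315T stood at log2 0.26 ± 0.22 for Odc1, −0.10 ± 0.18 for Azin1, 0.06 ± 0.25 for Oaz1, −0.09 ± 0.21 for Oaz2, 0.06 ± 0.17 for Srm and 0.34 ± 0.22 for Sms. Amd1 and Sat1 did not pass the low-count filter in the pairwise fits of neuron footprints. For the ratio, the widest values were those of these low-count genes, Amd1 at 0.73 ± 0.89 and Sat1 at −1.10 ± 0.67 in hTDP-43 A315T against WT neurons, and 126 of the 134 differences were under 0.5 in size.

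**Figure D5:**
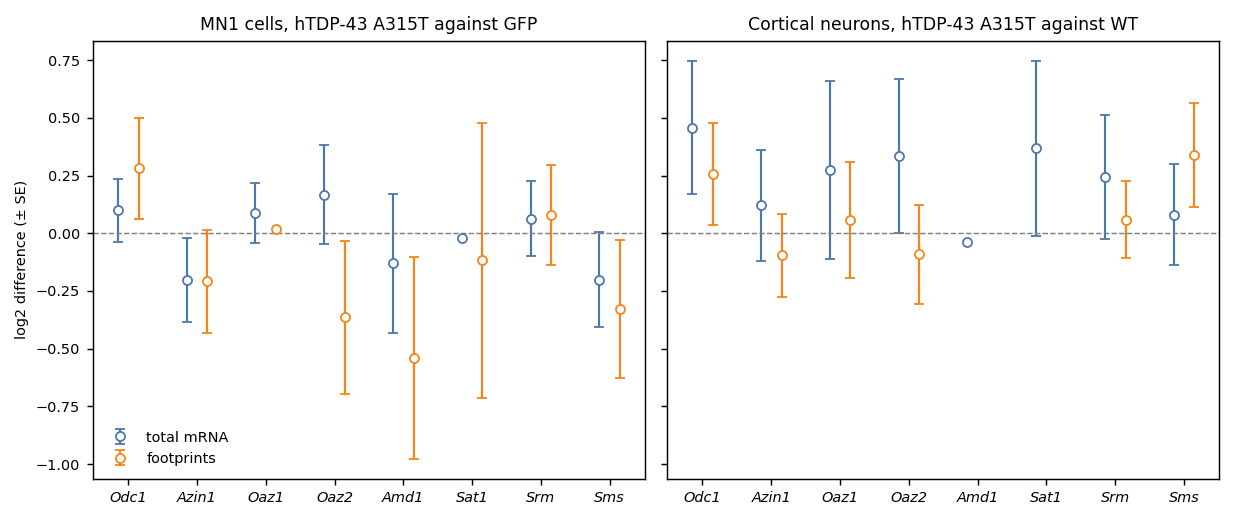
Log2 difference of hTDP-43 A315T from the control (GFP in MN1 cells, WT in neurons) with its SE (y axis) for each gene in total mRNA and footprints. No SE is drawn where p was above 0.9, and Amd1 and Sat1 have no neuron footprint value since they were not tested; no point was called, and the widest bars are those of Sat1 and Amd1 in MN1 footprints.

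Another 20 genes of polyamine metabolism, transport and hypusine synthesis (the modification of the factor eIF5A that uses spermidine) were examined beside the 8. In MN1 cells 11 were tested for footprints against total mRNA, of which 3 were higher (Slc3a2 0.83, Mtap 0.72, Dhps 0.34 log2) and 6 lower. Over all genes tested, 27.2% were higher and 30.2% lower there. Azin2, the other antizyme inhibitor gene, was low in both cell types (−1.08 in MN1 cells, −0.95 in neurons), as were the polyamine transporter gene Atp13a2 (−1.22 and −0.86) and Eif5a2 (−0.97 and −1.01). In neurons 15 were tested, with 4 higher, among them Slc3a2 (1.39) and Mat2b (0.72), and 4 lower, among them the spermine oxidase gene Smox (−1.09). Of all genes tested in neurons, 26.6% were higher and 27.3% lower. Between cell types, footprints of 3 of 12 were higher in neurons and 5 lower, and total mRNA of 6 of 15 higher and 6 lower. The shares over all genes were 42.7% higher and 39.9% lower in footprints, and 42.6% and 38.4% in total mRNA. The 20 genes were not tested as a set, so these counts are no result about the pathway. Eif5a, the substrate of hypusination, was lower in neurons by log2 −2.11 ± 0.19 in total mRNA and −1.92 ± 0.10 in footprints, Dohh, its hydroxylase, by −1.81 ± 0.22 and −1.46 ± 0.12, and Mtap, the salvage phosphorylase, by −3.65 ± 0.21 and −3.75 ± 0.23. Smox was at 0 to 0.459 CPM in MN1 total mRNA and at 24.5 CPM or more in neurons (median 46.0). Of 15 tested for the ratio between cell types, Mat2b alone was called (0.64 ± 0.18, adjusted p = 0.0322), beside 8.07% of all genes. None of the 20 was called between genotypes by edgeR or DESeq2, and 1 had an unadjusted p under 0.05 in edgeR, in MN1 total mRNA of hTDP-43 A315T against hTDP-43.

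Across all 28 libraries, which fall apart by cell type and share depth within a culture, the genes whose log2 CPM most resembled a member were listed from 13345 genes as a description. For Odc1 they were Txnrd1 (r = 0.98), E2f1 (0.98) and Bag2 (0.97), and for Srm Nup85 (0.99), Samm50 (0.99) and Fkbp4 (0.98). Oaz1 was nearest to Slc25a39 (0.96), Fam53a (0.95) and Rpsa (0.95), and Oaz2 to Slc30a9 (0.97), Dynll2 (0.97) and Grk2 (0.97). Sms was nearest to Rian (0.97), Iffo2 (0.96) and Gng7 (0.96), and Amd1 to Foxn2 (0.95), Pole3 (0.93) and Nfic (0.93). Sat1, which was not called between the cell types in total mRNA, had weaker neighbours, Nabp1 (0.81), Kif26a (0.81) and Dtx2 (0.80).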

How the data were processed

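The authors clipped adapters with cutadapt 1.8.1, removed reads that Bowtie2 placed on non-coding RNAs, aligned the rest to GRCm38 with TopHat2 and counted reads on exons with featureCounts 1.4.4 on an Ensembl annotation, without strand. The deposited values are raw counts per gene, neither normalized nor pooled. All 28 libraries were grouped by their labels and used. Symbols were matched by gene identifier. Upstream frames and stretches found once in the genome came from the main transcripts of GENCODE M21 (GRCm38), and the shift sites from RefSeq (GRCm38.p6).

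Counts were tested with edgeR 4.0.16 in R 4.3.3 (TMM scaling, filterByExpr with minimum count 10 and minimum total 15, quasi-likelihood test). P-values were adjusted by the Benjamini-Hochberg method over all genes tested, with a threshold of 0.05, and DESeq2 1.42.0 stood in for the DESeq of the study. SEs were computed from the log2 difference and the test statistic, and none is given where p exceeds 0.9. Genotypes were compared in pairs, ratios by a term for library type and group together, and cell types over all cultures. Intervals of counting error do not cover the spread between cultures. Ratios per culture used TMM-scaled CPM without an added count. The shares of coding genes below a member per length used ratios with 0.5 CPM added to both libraries, so cultures with 0 footprints entered them. The steps were tested on simulated data with 200 changed genes. All 8 members are named throughout; of the 20 other pathway genes, those named are ones that passed a test, and the 3 genes most alike by Pearson's r over 28 libraries were listed, except those of Azin1, which are not reported here. The members and lists were chosen with earlier results of these data known. Titles give same-numbered cultures of a cell type the same date, except for the year of 1 MN1 GFP footprint library, and deviations of same-numbered cultures from their group means correlated on average at 0.34 (footprints) and 0.44 (total mRNA) for MN1 cells, and at 0.12 and 0.17 for neurons, where the lowest pairs were at 0.03 and −0.17. Footprint and total mRNA libraries of a culture are paired by design, so fits with a block were run as alternatives, as were RLE scaling, no filter, control groups only and leaving out each culture. Leaving out the shallowest neuron cultures or those numbered 3 of WT and hTDP-43, and the ratio per length or per unique stretch, were chosen after seeing the data.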

Additional observations from a re-analysis of the deposited data

Results flagged for a closer look

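Every member was searched, in footprints and in total mRNA, for hTDP-43 A315T cultures that lay apart from the controls in opposite directions in the cell types. Sms footprints were flagged by this rule. In MN1 cells both hTDP-43 A315T cultures (24.7 and 30.7 CPM) lay below both GFP cultures (31.7 and 35.2 CPM), and in neurons all 3 (from 61.8 to 78.7 CPM) lay above both WT cultures (57.4 and 54.3 CPM). The difference between these effects was log2 0.69 ± 0.37 in neurons relative to MN1 cells, which did not pass the edgeR test (adjusted p = 1.00). The share of all genes that meet the same rule was not counted, so the pattern is no result about Sms.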

How the results depend on the processing

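The cell type calls of Odc1, Srm, Oaz1, Oaz2, Sms and Amd1 in total mRNA kept their direction under every alternative run, but with control groups only the calls of Oaz1 (−1.06, adjusted p = 0.0983) and Amd1 (−1.20, adjusted p = 0.0656) were lost. Leaving out 1 culture at a time, 0 to 3 of 8 genes were called between hTDP-43 A315T and WT neurons in total mRNA (0 with all cultures, and 3 without WT replicate 2, where 1573 of 12558 genes were called), and 0 to 2 in the ratio between cell types (1 with all). With control groups only (2 cultures a group) 0 were called in neuron footprints against total mRNA, 5 and 4 between cell types in footprints and total mRNA, and 0 in the ratio. With the culture as a block, 2 genes were called in that ratio, Odc1 and Srm (adjusted p = 0.0101 and 0.0470). The share of all genes called there is not given, so this count is no result about the members. With the block, Sat1 was lost in neuron footprints against total mRNA, and no genotype call of a member was made.

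None of the values that changed sign was called, with all cultures or at the changed sign. In MN1 footprints against total mRNA they were Azin1 without a filter (−0.092) and with the block (−0.014), and Sms without a filter (−0.057). Leaving out 1 culture gave −0.085 to 0.039 for Azin1, −0.21 to 0.59 for Sat1 and −0.0068 to 0.079 for Sms there. In the ratio between cell types, Oaz2 turned to −0.098 with controls only, −0.067 in DESeq2, −0.070 under RLE and −0.063 without the cultures numbered 3, and with 1 culture left out Oaz2 ran from −0.086 to 0.45 and Oaz1 from −0.30 to 0.13. For hTDP-43 A315T against WT in total mRNA of neurons, Amd1 became 0.0099 without a filter, and leaving out 1 culture gave −0.28 to 0.10 for Amd1, −0.070 to 0.68 for Srm, −0.26 to 1.16 for Oaz1 and −0.14 to 1.07 for Oaz2, the highest values of Oaz1 and Oaz2 being called. In footprints there it gave −0.065 to 0.23 for Oaz1, −0.31 to 0.10 for Oaz2 and −0.044 to 0.15 for Srm. Against GFP in MN1 cells, 1 culture left out gave −0.0046 to 0.53 for Odc1 footprints, −0.055 to 0.43 for the Odc1 ratio, and, in total mRNA, −0.43 to 0.055 for Azin1, −0.054 to 0.48 for Oaz2, −0.051 to 0.24 for Odc1, −0.48 to 0.25 for Amd1, −0.29 to 0.25 for Sat1 and −0.15 to 0.24 for Srm. In footprints it gave −0.58 to 0.024 for Azin1, −0.19 to 0.25 for Oaz1, −0.71 to 0.082 for Oaz2, −0.81 to 0.63 for Sat1 and −0.16 to 0.36 for Srm. Sat1 turned to 0.0051 in DESeq2 and 0.040 with the block in footprints, and to 0.00049 without a filter in total mRNA. The cause was not tested.

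Over all genes, the 20 comparisons involving genotypes called 0 or 1 gene, up to 283 with the block, up to 209 without a filter and up to 11 in DESeq2, and none of the 8 members among them. Controls alone called 2930 genes in MN1 footprints against total mRNA (5857 with all cultures), 0 in neurons (6290), 6471 in total mRNA between cell types (10369) and 0 in the ratio (997, and 604 under RLE). Depth limits Amd1 and Sat1 most, and neuron hTDP-43 replicates 2 and 3.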
